A study of Rattus norvegicus with 12 samples.

Results

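The genes described here are 10 markers of liver endothelium, the cells that line the blood vessels and sinusoids. They were chosen by name, and 8 of the 10 had a probe set (10 probe sets in all) among 14217 measured genes. The sinusoidal genes were Stab2, Lyve1, Fcgr2b and Clec4g, and the general vascular genes were Pecam1, Cdh5, Kdr, Tek, Vwf and Plvap. Clec4g and Cdh5 had no probe set listed in the annotation used and were not analysed here, which left 3 of 4 sinusoidal and 5 of 6 general vascular genes. Liver RNA was measured on 12 Affymetrix rat arrays. Tumor and nontumor liver of Long Evans Cinnamon (LEC) rats aged 67 weeks gave 4 arrays each. Each of these arrays held a mixture of RNA from 2 of the 8 tumors, or from the nontumor liver beside 2 of them, drawn at random. Liver of Long Evans Agouti (LEA) rats aged 67 weeks, the control strain, gave 1 array, and LEC liver at 4, 26 and 39 weeks gave 1 array each, all from pooled RNA. In all LEC groups the gene Atp7b, whose product exports copper from hepatocytes, is defective, and the rats store copper, pass through hepatitis and form liver tumors spontaneously. All rats were kept free of specific pathogens, and the labels give no treatment. Nothing states how the mixtures share animals, and p-values therefore reflect only the spread between these samples.

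Blood crosses the liver through sinusoids, whose endothelial cells are perforated and lack an ordinary basement membrane. These cells clear waste from blood with scavenger and Fc receptors that most other endothelium lacks. Other vessels of the liver carry markers of ordinary endothelium, such as von Willebrand factor, and in chronic liver injury sinusoidal endothelium can lose its own markers and take on those of ordinary capillaries. RNA of whole tissue was measured, so fewer cells of a type and less RNA per cell cannot be told apart.

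Male rats are given throughout the labels, and 10 of the 12 arrays went against this. On those 10, Xist, an RNA of the inactive X chromosome, stood between 11.36 and 13.12 and the Y-linked gene Eif2s3y between 3.65 and 3.81. At 26 and 39 weeks, Xist stood at 5.27 and 5.67 and Eif2s3y at 8.90 and 8.18. The arrays of tumor, nontumor and LEA liver at 67 weeks did not differ in this respect. Values are log2 expression values, so a difference of 1 is a factor of 2. All 10 probe sets of these genes lay above the highest of 27 probe sets for bacterial RNA on all 12 arrays, by at least 0.53. This smallest margin was that of Stab2 on tumor array 2. Hepatocyte markers averaged between 9.44 and 12.93 over the tumor arrays, against 13.35 to 13.56 over the nontumor arrays and 13.47 on the LEA array, and none of the 11 measured lay within the bacterial range on all arrays.

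In tumor liver the 3 measured sinusoidal genes fell, and 4 of the 5 measured general vascular genes rose, while Kdr fell slightly. Stab2, a scavenger receptor that takes up hyaluronan, fell to 11.5% of its nontumor level. Plvap, a protein of the diaphragms that close endothelial pores, rose 3.05-fold, and Vwf, the blood clotting factor stored in vascular endothelium, rose 2.90-fold. By limma with Benjamini-Hochberg adjustment over all probe sets, 63.9% of all probe sets were called between tumor and nontumor liver, 31.7% higher and 32.2% lower, so a call alone says little about these genes. Among all 14217 genes the median difference was 0.07, against -1.53 for the sinusoidal and 1.01 for the general vascular genes. The 11 measured hepatocyte markers had a median of -2.13, so a fall was not particular to the sinusoidal genes. Of these markers 8 fell (72.7%, against 29.2% of all genes) and 0 rose. Over the other settings 3 to 11 fell and the median lay between -2.64 and -1.08, the value without tumor array 4.

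**Figure D1:**
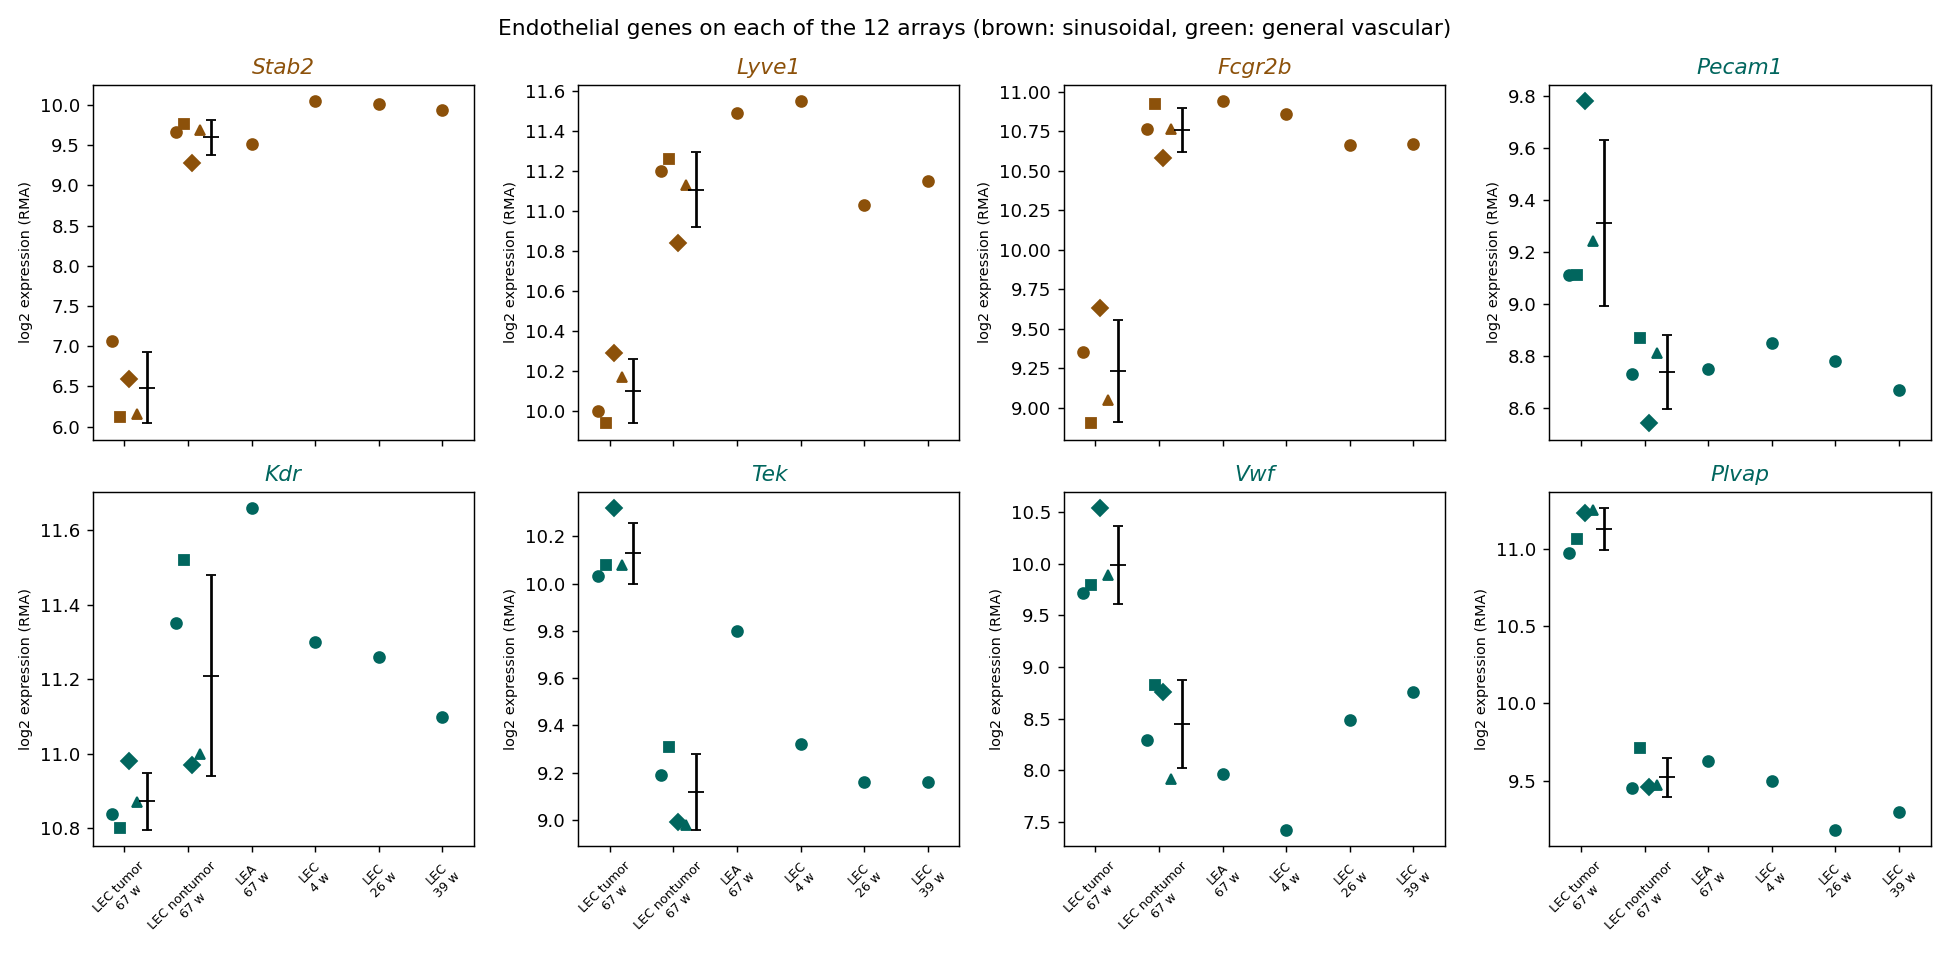
Log2 expression of 8 endothelial genes on each of the 12 arrays, with one panel per gene and groups along the horizontal axis. Circles, squares, diamonds and triangles are arrays 1 to 4 of a group, and bars are the mean ± SD of 4 arrays. Stab2, Lyve1 and Fcgr2b lie lower on all 4 tumor arrays than on any other array, and Vwf, Tek, Pecam1 and Plvap lie higher there than on any other.

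Stab2 stood at 7.07, 6.12, 6.59 and 6.16 on tumor arrays 1 to 4, against 9.67, 9.76, 9.28 and 9.69 on nontumor arrays 1 to 4. The groups did not overlap, as in 60.5% of all probe sets, and the gap between them was wider than the range within either. The means were 6.48 ± 0.45 in tumor and 9.60 ± 0.21 in nontumor liver (SD, n = 4 each), a difference of -3.12 ± 0.21 (SE, limma adjusted p = 7.4e-06). Of 14217 genes ordered from the lowest difference up, Stab2 held rank 146. The highest bacterial probe set stood at 5.59 on tumor arrays 2 and 4, near Stab2 there, so the size of its fall is less certain than the direction. Lyve1, a hyaluronan receptor of sinusoids and lymphatic vessels, stood at 10, 9.94, 10.29 and 10.17 on the tumor arrays, against 11.20, 11.26, 10.84 and 11.13 on the nontumor arrays. Its groups did not overlap, and it was 2.01-fold lower in tumor (-1.01 ± 0.12, limma adjusted p = 0.00011). A further Lyve1 probe set differed by -1.37 ± 0.13 in the same direction. Fcgr2b, an inhibitory receptor for IgG that in liver lies mainly on sinusoidal endothelium, stood at 9.35, 8.90, 9.63 and 9.05 on the tumor arrays, against 10.76, 10.92, 10.58 and 10.76 on the nontumor arrays. It was 2.88-fold lower in tumor, with no overlap (-1.53 ± 0.16, limma adjusted p = 5.8e-05). Fc receptor genes resemble each other, and whether this probe set also reads a relative was not tested.

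Fcgr2b is also carried by Kupffer cells, the macrophages of the sinusoids, and by B cells. Of 12 measured Kupffer cell and macrophage markers, 5 rose and 4 fell in tumor (41.7% and 33.3%). Of all genes 38.8% rose and 29.2% fell, so these counts say nothing particular about the list. The mean level of the markers lay between 9.85 and 10.43 on the tumor arrays, against 10.37 to 11.03 on the nontumor arrays. Clec4f, a lectin of Kupffer cells in rodents, fell (-3.85 ± 0.29), as did Cd5l, secreted by tissue macrophages (-4.82 ± 0.57), while the macrophage receptor Csf1r rose by 0.68 ± 0.13. Of 6 measured B cell markers 2 fell (33.3%, near the 29.2% of all genes) and 0 rose (4 had an adjusted p of 0.05 or more). Without dim probe sets 2 of these markers were left, of which 1 fell. The mean level of the 6 lay between 6.88 and 7.5 on the tumor arrays, against 7.37 to 7.73 on the nontumor arrays. None of these markers lay within the bacterial range on all arrays. The part of these cells in the Fcgr2b difference was not tested.

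The general vascular genes of cell contacts and clotting were higher in tumor. Pecam1, an adhesion molecule of endothelial junctions, stood at 9.11, 9.11, 9.78 and 9.24 on the tumor arrays, against 8.73, 8.87, 8.54 and 8.81 on the nontumor arrays. Its lowest tumor value lay above its highest nontumor value by less than the spread between the tumor arrays. It rose 1.49-fold (0.57 ± 0.16, limma adjusted p = 0.0109), the smallest rise of the 4, and was not called after the arrays were quantile normalized again (0.27, adjusted p = 0.184). Probe sets with a mean level between 8 and 12, which holds the mean levels of the 8 genes, had a median difference of 0.23 in the deposited values and of -0.03 after that step. Vwf stood at 9.72, 9.79, 10.54 and 9.89 on the tumor arrays, against 8.29, 8.83, 8.76 and 7.92 on the nontumor arrays. Its groups did not overlap, and the difference was 1.53 ± 0.24 (limma adjusted p = 0.00068). Vwf and Pecam1 are also carried by platelets and megakaryocytes. Of 6 measured platelet and megakaryocyte markers 1 rose and 5 fell (16.7% and 83.3%, against 38.8% and 29.2% of all genes). Pf4, a chemokine of platelet granules, differed by 2.00 ± 0.10 and the platelet integrin Itga2b by -0.84 ± 0.09. The mean level of these markers was 7.22 to 7.28 on the tumor arrays and 7.27 to 7.54 on the nontumor arrays. None lay within the bacterial range on all arrays, and their part in the Vwf and Pecam1 differences was not tested. The highest bacterial probe set itself lay at 5.52 to 5.67 on the tumor arrays and 5.88 to 6.01 on the nontumor arrays. Ppbp (means of 5.67 and 6.17) and Gp5 (5.80 and 6.32) lay near it, so the size of their falls is uncertain. Without dim probe sets 3 of the 6 markers were left, of which 1 rose and 2 fell.

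Of the growth factor receptors, Tek rose and Kdr did not. Tek, the receptor of the angiopoietins, stood at 10.03, 10.08, 10.32 and 10.08 on the tumor arrays, against 9.19, 9.31, 8.99 and 8.98 on the nontumor arrays. The groups did not overlap, and Tek was 2.01-fold higher (1.01 ± 0.10, limma adjusted p = 5.8e-05). Kdr, the main receptor of VEGF-A on endothelium, stood at 10.84, 10.80, 10.98 and 10.87 on the tumor arrays, against 11.35, 11.52, 10.97 and 11 on the nontumor arrays. Here tumor array 3 overlapped with nontumor array 3, and nontumor arrays 3 and 4 lay near the tumor arrays. Kdr fell (-0.34 ± 0.13, 95% interval -0.63 to -0.05, limma adjusted p = 0.0428). This call was lost without nontumor array 1 or 2 or without tumor array 1, 2 or 4 (differences of -0.34 to -0.24, adjusted p from 0.079 to 0.103). A further Kdr probe set fell without overlap (-0.46 ± 0.11, limma adjusted p = 0.0062).

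Plvap stood at 10.97, 11.06, 11.23 and 11.25 on the tumor arrays, against 9.45, 9.71, 9.46 and 9.47 on the nontumor arrays. The groups lay far apart relative to their SD of 0.13 each, with a difference of 1.61 ± 0.10 (limma adjusted p = 3.9e-06). Within the tumor group, array 3 held the highest value of 6 of the 8 genes, both sinusoidal and general vascular, and array 1 that of Stab2 and array 4 that of Plvap.

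**Figure D2:**
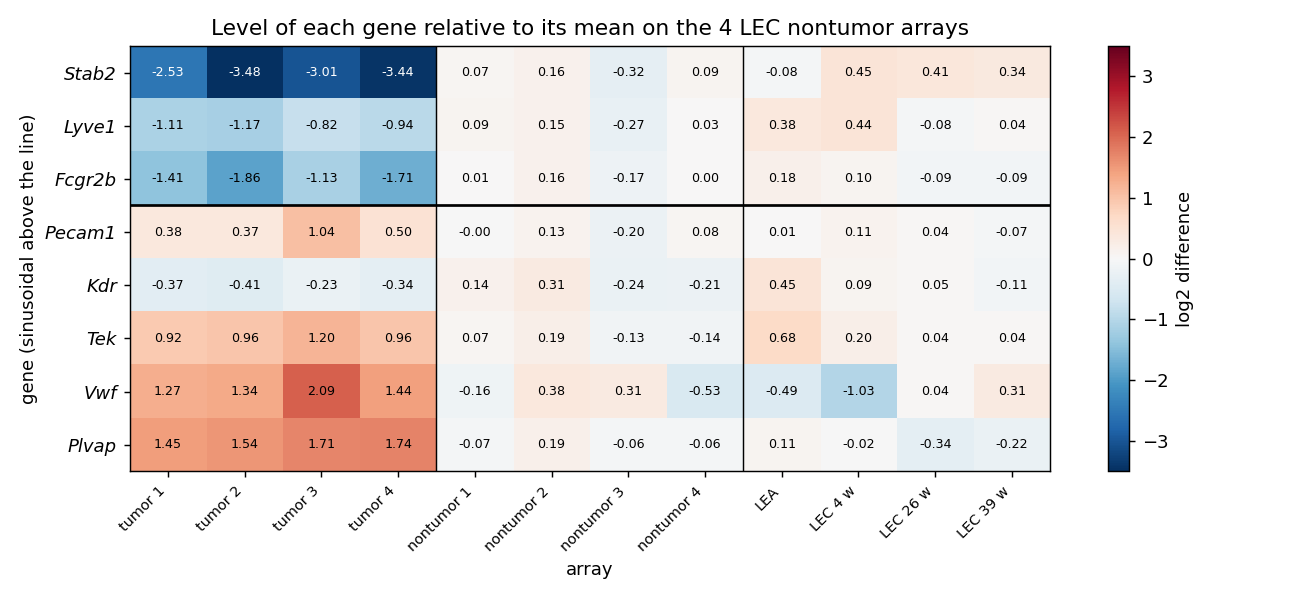
Log2 level of 8 endothelial genes (rows, sinusoidal genes above the line) on each array (columns) relative to the gene's mean on the 4 LEC nontumor arrays. The sinusoidal rows are below 0 and Pecam1, Tek, Vwf and Plvap above 0 on every tumor array, while values on the other arrays lie between -1.03 for Vwf at 4 weeks and 0.68 for Tek in LEA liver.

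The split between the classes appeared on each tumor array. Relative to the nontumor means, the median of the 3 sinusoidal genes was -1.41, -1.86, -1.13 and -1.71 on tumor arrays 1 to 4, and that of the 5 general vascular genes was 0.92, 0.96, 1.20 and 0.96. The sinusoidal minus the vascular median was therefore -2.33, -2.82, -2.33 and -2.67 log2 units on tumor arrays 1 to 4. The same quantity lay between -0.14 and 0.16 on the nontumor arrays, at 0.07 on the LEA array, and at 0.35, -0.12 and 0.11 on the LEC arrays of 4, 26 and 39 weeks. No test is given for these medians, since the genes were chosen with results of these data known.

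Promoter windows from RefSeq (build GRCr8) were held for 5 of the 10 genes. Those of Stab2 and Lyve1, which fell in tumor, and of Plvap, which rose, are shown from 250 bases before to 50 bases after the annotated start, 5′ to 3′ on the strand of the gene. Capitals mark matches on either strand to the ETS core AGGAAG or CGGAAG and to the GATA core AGATAA or TGATAA. ETS and GATA factors are known regulators of endothelial genes. The windows are chr7:23320513-23320812 for Stab2, chr1:174410928-174411227 for Lyve1 and chr16:18231230-18231529 for Plvap, all on the minus strand.
Stab2: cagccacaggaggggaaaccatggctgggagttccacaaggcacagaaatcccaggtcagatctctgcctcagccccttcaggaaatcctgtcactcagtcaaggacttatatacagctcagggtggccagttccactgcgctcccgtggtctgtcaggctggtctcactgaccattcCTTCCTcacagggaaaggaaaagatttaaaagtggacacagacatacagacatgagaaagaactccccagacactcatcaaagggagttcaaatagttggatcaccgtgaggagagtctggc
Lyve1: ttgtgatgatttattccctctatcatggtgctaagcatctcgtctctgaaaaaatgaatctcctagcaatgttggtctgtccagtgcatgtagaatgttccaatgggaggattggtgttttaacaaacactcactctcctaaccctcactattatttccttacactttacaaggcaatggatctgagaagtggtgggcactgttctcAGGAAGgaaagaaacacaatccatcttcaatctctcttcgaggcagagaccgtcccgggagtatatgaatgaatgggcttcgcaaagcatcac
Plvap: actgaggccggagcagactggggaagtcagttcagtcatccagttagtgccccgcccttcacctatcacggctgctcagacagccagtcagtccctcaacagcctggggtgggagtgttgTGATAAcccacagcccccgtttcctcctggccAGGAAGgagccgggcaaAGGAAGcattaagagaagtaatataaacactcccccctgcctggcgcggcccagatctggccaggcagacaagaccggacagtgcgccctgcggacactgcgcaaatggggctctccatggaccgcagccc
The Stab2 and Lyve1 windows each held 1 ETS match, 72 and 43 bases before the start (positions -72 and -43), and no GATA match. The Plvap window held 2 ETS matches, at -98 and -81, and 1 GATA match (TGATAA) at -130. The ETS letters occur in 45.5% and the GATA letters in 18.9% of 33469 rat promoter windows of this length. No match of the motifs searched overlapped another in the windows shown. Of the windows held but not shown, that of Clec4g, a sinusoidal gene without a probe set, held 4 ETS matches and 0 GATA matches. That of Kdr, a general vascular gene, held 0 of either. Whether these matches bear on the differences in tumor was not tested.

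Most further sinusoidal genes fell and most further vascular genes rose. Of 23 further sinusoidal genes, 13 fell and 5 rose in tumor, with a median of -0.64 (-0.74 to -0.38 over the other settings), against 29.2% of all genes lower and 38.8% higher with a median of 0.07. The fatty acid receptor Cd36 fell (-2.90 ± 0.43), as did the secreted DNase Dnase1l3 (-1.95 ± 0.19), the receptor Gpr182 (-1.37 ± 0.09) and the endocytosis protein Ehd3 (-1.36 ± 0.16). In which cells these RNAs fell was not tested, and the hepatocyte markers fell too, with a median of -2.13. Cd36 stood at 8.33, 7.81, 9.39 and 7.13 on the tumor arrays, against 11.27, 11.50, 10.86 and 10.62 on the nontumor arrays. At 26 and 39 weeks it stood at 9.22 and 9.02, inside the tumor range, on the arrays that differ in Xist and Eif2s3y, and the part of this difference in the Cd36 levels was not tested. Dnase1l3 stood at 9.48, 8.74, 8.77 and 8.60 on the tumor arrays, against 10.94, 11.11, 10.68 and 10.68 on the nontumor arrays. The lectins Clec1b (-1.34) and Clec4m (-1.32) and the secreted factors Bmp2 (-1.0), Wnt2 (-0.85) and Rspo3 (-0.64), by which sinusoidal endothelium is known in mice to steer hepatocytes, fell too, and were named after their values were seen. All 4 tumor values of Clec1b (5.04 to 5.30) lay below the highest bacterial probe set of the same array, so the size of its fall is uncertain.

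The rises in the sinusoidal list were those of Tfpi, an inhibitor of clotting (2.08 ± 0.37), Stab1 (1.29 ± 0.10), the semaphorin receptor Plxnc1 (1.24 ± 0.09), Cd4 (0.99 ± 0.21) and clotting factor F8 (0.30). Stab1 is the closest relative of Stab2 and is also carried by macrophages. It stood at 9.12, 9.07, 9.33 and 9.32 on the tumor arrays, against 7.96, 8.09, 7.73 and 7.90 on the nontumor arrays, and so moved in the opposite direction to Stab2 on every tumor array. The mannose receptor Mrc1, carried by sinusoidal endothelium and macrophages, had a difference of -0.20 ± 0.16 and was not called (95% interval -0.56 to 0.17, limma adjusted p = 0.303).

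Of 49 further vascular genes 35 rose and 2 fell (71.4% and 4.08%, against 38.8% and 29.2% of all genes). The median was 0.81, and the count of rises was 29 after the arrays were quantile normalized again. The largest rises were those of the platelet and endothelial protein Mmrn1 (3.14 ± 0.31), the matrix protein Ltbp4 (2.78 ± 0.32), the Notch ligand Jag1 (2.72 ± 0.26) and thrombomodulin, Thbd, a brake on clotting (2.52 ± 0.21). Further Thbd probe sets rose by only 1.23 and 1.16. Mmrn1 stood at 8.40, 9.28, 9.90 and 8.41 on the tumor arrays, against 5.62, 5.96, 5.92 and 5.95 on the nontumor arrays. The highest bacterial probe set stood at 6.01, 5.93, 5.88 and 5.99 on those nontumor arrays. Mmrn1 thus lay below or barely above it there, so the size of its rise and its place among the largest are uncertain. Several of the 35 are also expressed outside endothelium. Among genes closer to endothelium, the orphan receptor Tie1, which acts with Tek, rose by 0.81 ± 0.08. The junction protein Cldn5 (2.27), the sialomucin Emcn (1.43), the TGF-beta co-receptor Eng (1.19) and the transcription factors Sox17 (1.76) and Fli1 (1.93) rose as well, while Erg (0.12) and Dll4 (0.17) were not called (adjusted p = 0.425 and 0.158). These last 7 genes were named after their values were seen. The falls were Myct1 (-0.35 ± 0.11), whose groups overlapped, and Notch4 (-0.29 ± 0.08), while a further Myct1 probe set was not called (0.05) and of 2 further Notch4 probe sets 1 fell (-0.40) and 1 rose (0.51). Flt1, a VEGF receptor that acts largely as a decoy, differed by 0.14 ± 0.10 in its brightest probe set (limma adjusted p = 0.245), while 2 further probe sets rose by 1.83 and 0.54.

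**Figure D3:**
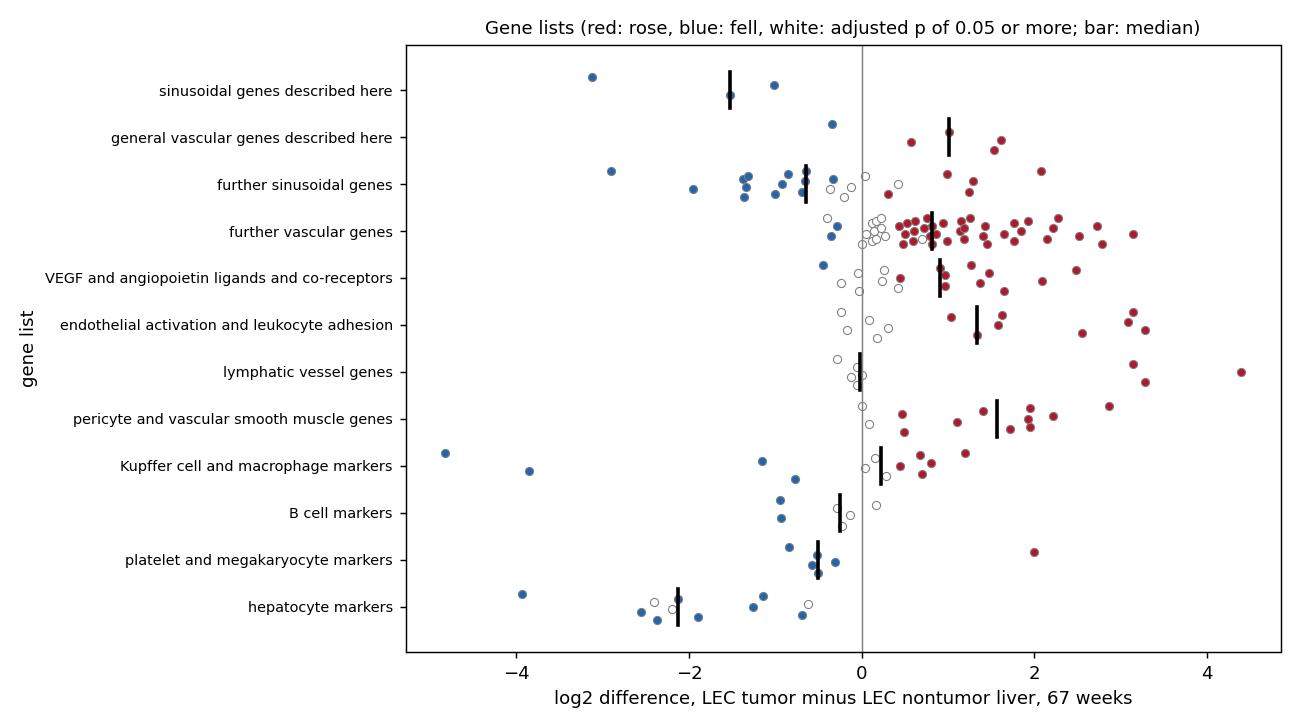
Log2 difference between LEC tumor and LEC nontumor liver at 67 weeks (horizontal axis) for each measured gene (point) of 12 lists (rows), with the list median as a bar. Red points rose, blue points fell and white points had an adjusted p of 0.05 or more. The sinusoidal medians lie below 0 and those of the vascular, adhesion and pericyte lists above 0.

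The ligands of Kdr and Tek differed in size. Vegfa, the main ligand of Kdr, stood at 10.88, 11.13, 10.60 and 10.88 on the tumor arrays, against 10.60, 10.61, 9.92 and 10.55 on the nontumor arrays. The groups overlapped, the rise was 0.45 ± 0.18 (limma adjusted p = 0.0474), and a further probe set was not called (0.22, adjusted p = 0.394). On the single LEA array Vegfa stood at 11.32, above every tumor and nontumor array. Tumor minus LEA was -0.45 ± 0.28 and nontumor minus LEA -0.9 ± 0.28 (limma adjusted p = 0.219 and 0.241), so the rise did not reach the LEA level. Angpt2, a Tek ligand that endothelial cells release, stood at 6.95, 6.55, 7.76 and 7.02 on the tumor arrays, against 5.94, 5.66, 5.44 and 5.78 on the nontumor arrays, and rose by 1.37 ± 0.23 (limma adjusted p = 0.00101). None of its nontumor values lay above the highest bacterial probe set of the same array, so the size of this difference is uncertain. Angpt1, the other Tek ligand, lay within that range on all 12 arrays and gives no usable difference. Of 17 ligands and co-receptors 10 rose and 1 fell (58.8% and 5.88%, against 38.8% and 29.2% of all genes). By brightest probe set, the largest rise was that of the protease inhibitor Timp3 (2.48 ± 0.15), which also blocks VEGF from Kdr. Next were the VEGF co-receptor Nrp1 (2.09 ± 0.13), and Ackr3 (1.65 ± 0.21) and its chemokine Cxcl12 (1.47 ± 0.15). Further probe sets rose by 2.48, 0.71 and 1.94 for Timp3, 2.14 for Nrp1, and only 0.56 and 0.67 for Cxcl12. Hgf, a growth factor for hepatocytes, was the fall (-0.45 ± 0.17, limma adjusted p = 0.0463), and its groups overlapped. No gene of this list fell after quantile normalization again, or without nontumor array 1 or 3 or tumor array 1, 3 or 4. Against the LEA array, nontumor liver lay lower for Cxcl12 (-1.0) and Timp3 (-0.99) but not for Nrp1 (0.03) or Ackr3 (0.25), none called. Tumor minus LEA was 0.47 for Cxcl12, not called, and 1.5 for Timp3, 2.13 for Nrp1 and 1.9 for Ackr3, all called.

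Of 13 genes of endothelial activation and leukocyte adhesion 8 rose and 0 fell (5 had an adjusted p of 0.05 or more). The share that rose was 61.5%, while 38.8% of all genes rose and 29.2% fell. With array medians subtracted 2 genes of this list fell, and 1 fell with array weights or without nontumor array 2. The largest rise was that of the chemokine Ccl21 (3.28 ± 0.27), which is also in the list of lymphatic vessel genes. Vcam1, which binds leukocytes to vessel walls, rose by 3.14 ± 0.10, and the membrane-bound chemokine Cx3cl1 by 2.55 ± 0.25. Cd44, a hyaluronan receptor of many cell types, rose by 3.09 ± 0.15, while the selectins Sele (0.30, adjusted p = 0.111, within the bacterial range on all arrays) and Selp (0.18, adjusted p = 0.143) were not called. Pericyte and vascular smooth muscle genes rose in 10 of 12 (83.3%, against 38.8% of all genes). Among them were Tagln (2.87 ± 0.21), Abcc9 (2.22 ± 0.21), Pdgfrb (1.95 ± 0.13) and Des (1.95 ± 0.17). The list median was 1.57, and 1.02 with the mean of all probe sets of a gene. Their mean level lay between 8.63 and 9.03 on the tumor arrays, against 7.29 to 7.64 on the nontumor arrays, Cnn1 lay within the bacterial range on all arrays, and their part in the vascular differences was not tested. Further probe sets of Abcc9 rose by 1.10 and 0.57, and of 2 for Pdgfrb 1 rose by 0.33 and 1 was not called (-0.04).

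Tumor and LEA liver were compared to set the tumor values against a strain without the disease. The LEA array is single and was assumed to vary like the replicated groups. LEA and LEC rats differ in strain as well as in disease, and these cannot be told apart here. The LEA values were 9.52 for Stab2, 11.49 for Lyve1, 10.94 for Fcgr2b, 8.75 for Pecam1, 11.66 for Kdr, 9.80 for Tek, 7.96 for Vwf and 9.63 for Plvap. Of the 8 genes 2 rose and 4 fell in tumor against LEA liver, where 39.6% of all probe sets were called by limma, 20.8% higher and 18.8% lower. Stab2 (-3.04 ± 0.33), Fcgr2b (-1.71 ± 0.25) and Lyve1 (-1.39 ± 0.18) fell, with adjusted p-values of 0.00025, 0.00095 and 0.0006. Kdr fell too (-0.79 ± 0.20, adjusted p = 0.0146). Vwf (2.02 ± 0.38) and Plvap (1.5 ± 0.15) rose, with adjusted p-values of 0.00372 and 0.00016. Pecam1 (0.56 ± 0.25, adjusted p = 0.0979) and Tek (0.33 ± 0.16, adjusted p = 0.133) were not called.

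Nontumor LEC liver was set against LEA liver of the same age to ask whether endothelial genes differ in diseased liver outside the tumors. Strain and disease cannot be told apart in this comparison either. None of the 8 genes was called by limma, and 0.544% of all probe sets were, 0.19% higher and 0.354% lower. At an unadjusted p under 0.05 the count was 1, Tek, and a further Lyve1 probe set was also below it (-0.67 ± 0.21, unadjusted p = 0.0109, limma adjusted p = 0.248). Tek lay at 9.80 on the LEA array, above each nontumor array (8.98 to 9.31), with a difference of -0.68 ± 0.16 (limma adjusted p = 0.131). Lyve1, Kdr and Fcgr2b also lay above every nontumor value on the LEA array, with differences of -0.38 ± 0.18, -0.45 ± 0.20 and -0.18 ± 0.25 and adjusted p-values of 0.454, 0.422 and 0.814. Stab2 differed by 0.08 ± 0.33 (95% interval -0.68 to 0.84), and Vwf by 0.49 ± 0.38 (95% interval -0.39 to 1.36). Differences of any size inside these intervals are compatible with the values. The intervals rest on the spread of the tumor and nontumor arrays, since 1 LEA array gives none. Pecam1 differed by -0.01 ± 0.25 and Plvap by -0.11 ± 0.15. The tumor, nontumor and LEA comparisons share arrays and are not independent of each other.

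**Figure D4:**
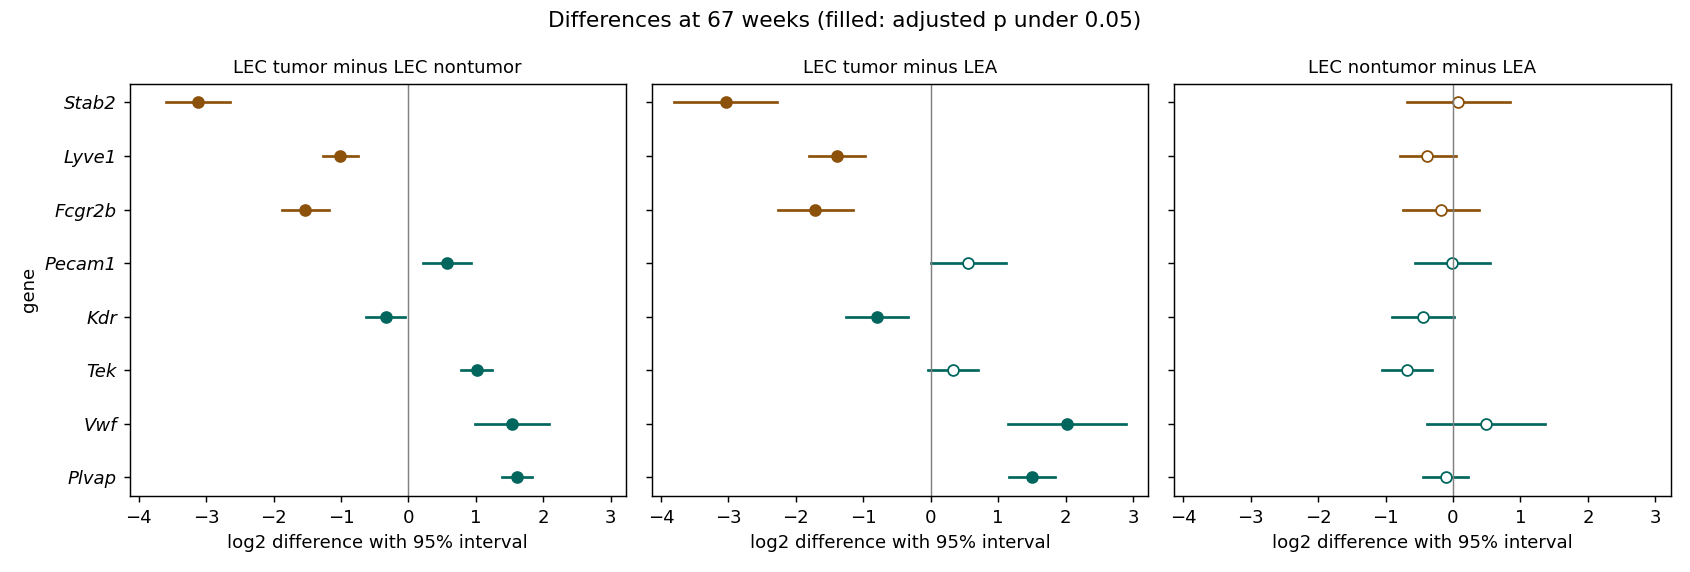
Log2 differences at 67 weeks with 95% intervals from limma for 8 endothelial genes (rows), for LEC tumor minus LEC nontumor, LEC tumor minus LEA and LEC nontumor minus LEA (panels). Filled points have an adjusted p under 0.05. All 8 are filled in the first panel, 6 in the second and 0 in the third.

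Across age in LEC liver the sinusoidal genes moved little. Stab2 stood at 10.05, 10.01 and 9.94 at 4, 26 and 39 weeks, and its nontumor mean at 67 weeks was 9.60 ± 0.21. Each of these single values lay above all 4 nontumor values at 67 weeks, but none of the differences was called (-0.45, -0.41 and -0.34, limma adjusted p = 0.629, 0.69 and 0.794). Lyve1 stood at 11.55, 11.03 and 11.15 and Fcgr2b at 10.86, 10.66 and 10.67 at 4, 26 and 39 weeks, and these values lay within the range of the nontumor arrays, except Lyve1 at 4 weeks, which lay above it (difference -0.44 ± 0.18, limma adjusted p = 0.344).

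Vwf was the gene that varied most with age. It stood at 7.42, 8.49 and 8.76 at 4, 26 and 39 weeks and at 8.45 ± 0.43 on the nontumor arrays at 67 weeks, so the 4 week value lay below every other array. Nontumor liver at 67 weeks exceeded 4 week liver by 1.03 ± 0.38, which was not called (limma adjusted p = 0.302). Against the 4 week array, Vwf was higher by 1.06 at 26 weeks and by 1.34 at 39 weeks. These were 2 of 48 pairs of single arrays and genes that reached 2-fold, while 2.27% and 2.24% of all probe sets reached it in those comparisons. None of the 8 genes reached it at 39 against 26 weeks, or at 4, 26 or 39 weeks against LEA liver, where 0.158%, 1.83%, 2.91% and 3.23% of all probe sets did. Both later arrays are those that differ from the 4 week array in Xist and Eif2s3y, and the part of this in the Vwf difference was not tested. No array of this series gives a spread for those ages.

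The other general vascular genes lay within or close to their nontumor range at the earlier ages. Pecam1 stood at 8.85, 8.78 and 8.67, Kdr at 11.30, 11.26 and 11.10, and Tek at 9.32, 9.16 and 9.16 at 4, 26 and 39 weeks, all inside the nontumor range but Tek at 4 weeks. Plvap stood at 9.50, 9.18 and 9.30, lower than every nontumor array at 26 and 39 weeks. None of the 8 genes was called by limma for nontumor liver at 67 weeks against 4, 26 or 39 weeks, where 0.377%, 0.213% and 0.148% of all probe sets were called (0.174%, 0.0419% and 0.0258% higher and 0.203%, 0.171% and 0.122% lower). At an unadjusted p under 0.05 the counts were 2 (Lyve1 and Vwf), 0 and 0.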

How the data were processed

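Total RNA of rat liver was labelled with biotin from 3 µg per the labels' protocols and hybridized to 12 Affymetrix rat arrays. The deposited table holds log2 expression values that the authors computed by RMA (background correction, quantile normalization and probe summary); the submitters' processing notes name R 2.6.1. Joint normalization of the 12 arrays is not stated. Array medians lay between 7.39 and 7.51. Values were used as deposited. The number of arrays limits the precision.

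Groups came from the sample titles. Of 31099 probe sets, 57 controls were left out and 31042 tested. The annotation gave 20826 a single gene, 436 several and 9780 none listed here, and 20758 matched RefSeq by Entrez identifier for their present symbol. A gene was represented by its probe set with the highest mean. limma 3.58.1 in R 4.3.3 fitted a mean per group to the 12 arrays together (6 residual degrees of freedom, prior 2.84), and the script was checked on simulated data. Tests were two-sided, adjusted by Benjamini-Hochberg over all probe sets, with a threshold of 0.05.

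The genes and lists were chosen with earlier results of these data known. Named were all 10 genes, up to 4 called genes per further list and direction for tumor against nontumor and up to 2 for nontumor against LEA (where none was called), and always Vegfa, Angpt1, Angpt2, Flt1, Tie1, Stab1 and Mrc1. Alternatives were normalization, centring, a filter, another prior, array weights, probe set means, fewer groups, a 2-fold threshold, each replicate left out and a block by title number. Plots used matplotlib 3.10.9.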

Additional observations from a re-analysis of the deposited data

Results flagged for a closer look

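In the groups of 4 arrays, 2 values stood apart from the other 3 of their group by more than Dixon's 95% limit, in 16 gene and group combinations tested; chance gives about 1 in 20. Tek on tumor array 3 stood at 10.32, with the next tumor value at 10.08. Plvap on nontumor array 2 stood at 9.71, with the next nontumor value at 9.47. Both stand on the high side, and the calls of Tek and Plvap between tumor and nontumor liver held without either array.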

How the results depend on the processing

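The falls of Stab2, Lyve1 and Fcgr2b and the rises of Tek, Vwf and Plvap between tumor and nontumor liver kept their direction and their call in all 17 settings run for each. Their ranges were -3.31 to -2.99, -1.22 to -0.96, -1.80 to -1.42, 0.73 to 1.07, 1.27 to 1.66 and 1.42 to 1.67. The sinusoidal median lay below the vascular median in tumor relative to nontumor liver (-2.54), and by -2.53 after quantile normalization again and -2.54 with array medians subtracted or probe set means. Pecam1 lost its call with quantile normalization again (0.27), and Pecam1 and Kdr did not reach 2-fold. The labels do not state whether the title number pairs the arrays. Same-numbered tumor and nontumor arrays correlated in their deviations between -0.0816 and 0.142, and differently numbered arrays between -0.144 and 0.108. These ranges overlap, so the values do not decide whether the arrays are paired. With the title number as a replicate block, 18957 probe sets were called and Kdr was not (-0.34, adjusted p = 0.0746). Probe sets called numbered 19845 for tumor against nontumor, 12280 for tumor against LEA, 169 for nontumor against LEA, and 117, 66 and 46 for nontumor liver at 67 weeks against 4, 26 and 39 weeks. With a 2-fold threshold the first 2 counts were 5037 and 5039. Without dim probe sets, with fewer tested, the 6 counts in that order were 10699, 7656, 106, 74, 23 and 18. With only the groups compared, and so fewer arrays for the spread, the last 4 were 38, 9, 5 and 6. Array weights gave 192 for 4 weeks and 70 for 39 weeks, and quantile normalization again gave 198 for 4 weeks; the cause was not tested. Leaving out 1 replicate gave 17418 to 19973, 10097 to 13305, 93 to 254, 23 to 167, 23 to 79 and 18 to 47. Leaving out tumor array 1, 2 or 4 moved each of the last 4 counts by over 1.5 times, as did nontumor arrays 1 and 3 for LEA, 2 and 3 for 4 weeks, 1 for 26 weeks, and 1 and 2 for 39 weeks. Of the called probe sets 49.6% were higher in tumor than in nontumor liver, 64.3% without dim probe sets, and 39.5% with array medians subtracted, where the median difference of all probe sets was -0.14 in place of -0.04.

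Differences near 0 changed sign, none called. Against LEA liver, Pecam1 came to 0.05 with quantile normalization again and 0.0045 with array medians subtracted (-0.053 to 0.056 with 1 replicate left out). Against 4 weeks, Kdr came to 0.0083 with probe set means, and Plvap to -0.048 to 0.041 with 1 replicate left out. Against 26 weeks, quantile normalization again gave 0.074 for Pecam1, 0.038 for Kdr, 0.093 for Tek and 0.052 for Vwf. Array weights gave 0.03 for Kdr and 0.0063 for Tek, and probe set means 0.047 for Kdr. Leaving out 1 replicate gave -0.084 to 0.025 for Pecam1, -0.15 to 0.033 for Kdr, -0.1 to 0.0076 for Tek and -0.16 to 0.14 for Vwf. Against 39 weeks, quantile normalization again gave 0.053 for Lyve1 and 0.068 for Tek, and array weights 0.0012 for Tek. Leaving out 1 replicate gave -0.092 to 0.047 for Lyve1 and -0.11 to 0.0025 for Tek.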

Other observations

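Of 8 measured genes of lymphatic vessels 3 rose in tumor against nontumor liver and 0 fell (5 had an adjusted p of 0.05 or more by limma), with a median of -0.02. The share that rose, 37.5%, was close to the 38.8% of all genes, so the count says nothing particular about this list. Podoplanin, Pdpn, rose by 4.39 ± 0.36 and the chemokine Ccl21 by 3.28 ± 0.27, and Mmrn1 is the remaining rise. Prox1, Flt4, Reln, Foxc2 and Nts, the other genes of this list, were not called, and Flt4 differed by -0.12 (adjusted p = 0.286). Pdpn is also carried by fibroblasts and bile duct cells, and Lyve1, which marks lymphatic as well as sinusoidal endothelium, fell in these tumors.

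Genes outside the list were ranked by how closely they followed the mean standardized level of each class over the 12 arrays, passing over symbols of uncharacterized loci. The closest to the sinusoidal class were Nags (r = 0.996), Fabp12 (0.994), Hoga1 (0.993), Gpr182 (0.991) and Gcdh (0.991). Of these Gpr182 is in the list of further sinusoidal genes, while Nags, Fabp12, Hoga1 and Gcdh are in none of the lists used here. A high r therefore does not mark a gene as endothelial. The closest to the general vascular class were Klhl13 (r = 0.965), Lmo2 (0.964), Slc4a7 (0.964), Runx1 (0.964) and Igsf6 (0.963). The 12 arrays share the split into tumor and other liver, with 76.6% of the variance on component 1 of a principal component analysis, so these values are a description of that split.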
